A study of Danio rerio with 6 samples.

Results

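T-box genes encode transcription factors that bind DNA through a shared domain, the T-box, and that set up the pharyngeal arches, the heart, the fins or limbs and the mesoderm of the trunk in vertebrate embryos. The 9 genes described here were chosen by name from the deposited expression table, with earlier results of these data known. They belong to 3 branches of the family. The Tbx2 branch holds *tbx2a*, *tbx2b*, *tbx3a* and *tbx5a*, the Tbx1 branch holds *tbx1*, *tbx15*, *tbx18* and *tbx20*, and the Tbx6 branch holds *tbx16*. All 9 were found once each by symbol among the 32057 genes of the table.

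EGFP+ cells of zebrafish embryos carrying Tg (*fli1a*: EGFP) were sorted at 28 hpf and their RNA was sequenced, to ask how *nlrc3*, an intracellular receptor gene of the NLR family, acts on blood stem cell emergence. The stage is that of the sample labels and the study's text, while its legends for RNA-seq panels of Notch and NF-kB genes give a slightly earlier stage. Every embryo carried the transgene, in which the promoter of *fli1a* drives EGFP in endothelium and, as is known for this line, also in mesenchyme of the pharyngeal arches. The 3 control MO samples came from embryos injected with a control morpholino and the 3 *nlrc3* MO samples from embryos injected with a splice-modifying *nlrc3* morpholino, which was injected at the higher concentration. A morpholino is an antisense oligomer that lowers gene function for a limited time, so no allele was changed. The study calls its RNA-seq replicates biological, but the sources used here do not say how many embryos made up a sample or whether samples came from separate clutches, so the p-values measure the spread between these samples, which may be technical.

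Levels are given in FPKM, fragments per kilobase of transcript scaled to the mapped fragments of the library, which allows genes to be set beside each other per length. FPKM hold no read totals, so the depth is unknown and the spread over 3 samples is the measure of error. The FPKM of all genes summed to between 524846 and 525567 with the control MO and to between 678620 and 687387 in the *nlrc3* MO samples. The knocked-down gene *nlrc3* was at 0.70 to 1.09 FPKM with the control MO and at 0.15 to 0.26 FPKM with the *nlrc3* MO. Only its control MO samples reached 0.5 FPKM, the level asked for in the tests below, so a difference was built into its selection. The endothelial receptor *kdrl* (63.4 to 65.6 FPKM with the control MO, 47.7 to 50.3 in *nlrc3* MO samples) and the junction gene *cdh5* (61.5 to 62.4 and 47.4 to 48.2 FPKM) were present in every sample. The list of 28 endothelial markers summed to between 1669 and 1697 FPKM with the control MO and to between 1229 and 1258 FPKM with the *nlrc3* MO. The sort also held transcripts of other cells. The 34 matched markers of neural crest and arch mesenchyme summed to between 1277 and 1286 FPKM with the control MO and to between 33.4 and 35.2 FPKM with the *nlrc3* MO. In sorted bulk samples, fewer cells of a type and less RNA per cell cannot be told apart.

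In the control MO samples the T-box genes fell into a steep order. *tbx2b* stood first, followed by *tbx2a*, *tbx18* and *tbx15*, and no 2 neighbours among these 4 genes overlapped between samples. *tbx1*, *tbx20* and *tbx3a* came next at 1.09 to 1.73 FPKM, with neighbours in the order overlapping, and *tbx16* and *tbx5a* were near 0. In the *nlrc3* MO samples this order was gone, and *tbx3a* stood first, above *tbx20*, *tbx2b* and *tbx16*, which overlapped in turn. The 9 genes together summed to 81.2 ± 2.57 FPKM with the control MO and to 4.97 ± 0.122 FPKM with the *nlrc3* MO (SD, n = 3 each).

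**Figure D1:**
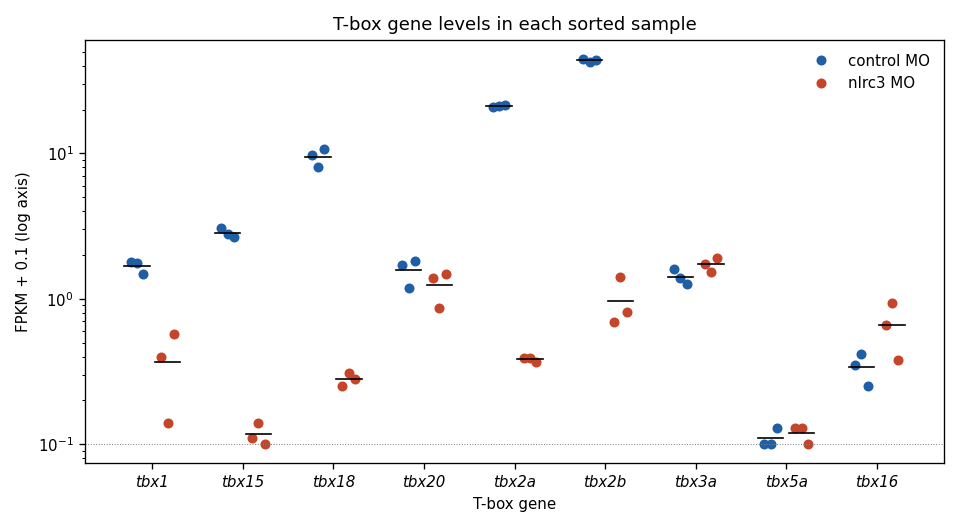
Level of each of the 9 T-box genes (x axis) as FPKM + 0.1 on a log axis (y axis) in the 3 control MO samples (blue) and the 3 *nlrc3* MO samples (red), with black lines at the group means and a dotted line where FPKM is 0. The groups are far apart for *tbx2a*, *tbx2b*, *tbx18* and *tbx15*, apart with more scatter for *tbx1*, and overlapping for *tbx20*, *tbx3a*, *tbx5a* and *tbx16*.

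To compare the groups, log2(FPKM + 0.1), the scale of every fold change below, was fitted with limma for the 15155 genes that reached 0.5 FPKM in 3 or more samples, and a gene was called at a Benjamini-Hochberg adjusted p under 0.05 with a fold change above 2 or below 0.5. Of the 9 T-box genes, 5 were called lower in the *nlrc3* MO samples (*tbx1*, *tbx2a*, *tbx2b*, *tbx15* and *tbx18*), 2 were tested and not called (*tbx3a* and *tbx20*) and 2 did not reach the filter (*tbx5a* and *tbx16*). Among all tested genes 20.4% were called lower and 4.89% higher (25.3% in either direction), and by the adjusted p alone 42.9% were lower and 20.2% higher. Because the 9 genes were chosen with earlier results known, setting them beside these shares is no test of the set. No T-box gene of the set was called higher by limma, and the number higher at an unadjusted p under 0.05 was also 0. Of the 5 called genes, 4 passed the filter only through the control MO samples, so that for these genes a difference was built into the selection. Without any filter all 9 genes entered the fit, and the same 5 were called lower, where 15.9% of all 24595 genes were called lower and 3.51% higher. All *nlrc3* MO samples lay below all control MO samples for the same 5 genes, for 46.1% of all tested genes, and above them for 22.8%. Across all tested genes the median log2 fold change was -0.22, and it was -0.60 after scaling to TPM and -0.013 after median-of-ratios scaling.

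The Tbx2 branch held the most abundant of the genes, and both Tbx2 paralogs were lower in the *nlrc3* MO samples. *tbx2b* (ENSDARG00000006120), a repressor that acts in the heart, the eye and the pituitary region of vertebrate embryos, was at 44.08, 42.26 and 43.74 FPKM with the control MO (samples 1 to 3 in order). It was at 0.59, 1.31 and 0.71 FPKM with the *nlrc3* MO. Every *nlrc3* MO sample lay below every control MO sample, and *nlrc3* MO sample 2 was the highest of its group. The means were 43.4 ± 0.968 and 0.870 ± 0.386 FPKM (SD, n = 3 each), and the fitted log2 fold change was -5.56 (SE 0.24, limma adjusted p = 8.63e-07).

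Its paralog *tbx2a* (ENSDARG00000018025) followed closely. It was at 20.83, 20.95 and 21.53 FPKM with the control MO (samples 1 to 3 in order) and at 0.29, 0.29 and 0.27 FPKM with the *nlrc3* MO. The samples of a group lay close together and the groups were far apart. The means were 21.1 ± 0.374 and 0.283 ± 0.0115 FPKM (SD, n = 3 each), and the fitted log2 fold change was -5.79 (SE 0.11, limma adjusted p = 1.22e-08). By log2 fold change *tbx2a* ranked 51 and *tbx2b* ranked 62 from the lowest of the 15155 tested genes.

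The ratio of the paralogs within a sample moves with the scaling of the libraries only through the pseudocount of 0.1. In the control MO samples the log2 ratio of *tbx2a* to *tbx2b* was -1.04 ± 0.037, and in the *nlrc3* MO samples it was -1.27 ± 0.53 (SD, n = 3 each). The change of -0.23 had an exact two-sided permutation p of 0.7 (Benjamini-Hochberg adjusted p = 0.7 over 4 pairs of genes), where 3 samples against 3 cannot go below 0.1. It was 0.059 without *nlrc3* MO sample 2, the sample with the highest *tbx2b*, and 0.48 with a pseudocount of 1, so no difference between the paralogs was shown in either direction.

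*tbx3a* (ENSDARG00000002216), the closest relative of the Tbx2 genes in the set and known in mammals for its part in the cardiac conduction system, was not called. It was at 1.49, 1.3 and 1.16 FPKM with the control MO (samples 1 to 3 in order) and at 1.63, 1.42 and 1.82 FPKM with the *nlrc3* MO. The groups overlapped, since control MO sample 1 lay above *nlrc3* MO sample 2. The log2 fold change was 0.28 (SE 0.17, 95% interval -0.13 to 0.69, limma adjusted p = 0.193), or 0.51 above the median of all tested genes. Scaling to TPM gave -0.073 (adjusted p = 0.728), and median-of-ratios scaling gave 0.49 (adjusted p = 0.0432, limma), so its direction depends on the scaling. The log2 ratio of *tbx2b* to *tbx3a* within a sample went from 4.95 ± 0.16 in the control MO samples to -0.89 ± 0.68 with the *nlrc3* MO (SD, n = 3 each), with no overlap. The change of -5.84 had an exact permutation p of 0.1, the smallest that 3 samples against 3 allow (0.2 adjusted over the 4 pairs).

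*tbx5a* (ENSDARG00000024894), the gene that starts the pectoral fin bud and shapes the heart in zebrafish, was close to absent from the table. It was listed at 0, 0 and 0.03 FPKM with the control MO (samples 1 to 3 in order) and at 0.03, 0.03 and 0 FPKM with the *nlrc3* MO. No comparison can be made at these levels. The heart muscle genes *myl7* and *nppa* were likewise listed at 0 in all 6 samples. They are only a part of a list of 18 heart muscle entries, of which 6 were tested, 3 called higher and 0 lower.

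In the Tbx1 branch *tbx18*, *tbx15* and *tbx1* were lower in the *nlrc3* MO samples, while *tbx20* was not called. *tbx18* (ENSDARG00000036930), a gene of somites, epicardium and mural cells, was at 9.64, 7.98 and 10.57 FPKM with the control MO (samples 1 to 3 in order). It was at 0.15, 0.21 and 0.18 FPKM with the *nlrc3* MO. All *nlrc3* MO samples were far below all control MO samples. The means were 9.40 ± 1.31 and 0.180 ± 0.0300 FPKM (SD, n = 3 each), and the fitted log2 fold change was -5.08 (SE 0.18, limma adjusted p = 2.86e-07).

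*tbx15* (ENSDARG00000002582), which in mouse is needed for parts of the skeleton and the skin pattern, was at 2.97, 2.69 and 2.55 FPKM with the control MO (samples 1 to 3 in order). With the *nlrc3* MO it was listed at 0.01, 0.04 and 0 FPKM, which is at the limit of the 2 decimals in the table. The groups did not overlap. The log2 fold change was -4.62 (SE 0.27, limma adjusted p = 4.19e-06), and because the *nlrc3* MO values are so small it was -6.99 with a pseudocount of 0.01 and -1.88 with a pseudocount of 1. The log2 ratio of *tbx15* to *tbx18* changed by 0.46, from -1.74 ± 0.25 to -1.27 ± 0.19 (SD, n = 3 each, exact permutation p = 0.1, adjusted p = 0.2), but by -1.36 with a pseudocount of 0.01. The 2 falls can therefore not be ranked.

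*tbx1* (ENSDARG00000031891) patterns the pharyngeal arches and the outflow tract of the heart, and its human counterpart lies in the region deleted in DiGeorge syndrome. It was at 1.68, 1.67 and 1.38 FPKM with the control MO (samples 1 to 3 in order) and at 0.30, 0.04 and 0.47 FPKM with the *nlrc3* MO. The groups did not overlap, and *nlrc3* MO sample 2 lay far below the other two of its group. The means were 1.58 ± 0.170 and 0.270 ± 0.217 FPKM (SD, n = 3 each), and the fitted log2 fold change was -2.40 (SE 0.50, limma adjusted p = 0.00406). Without *nlrc3* MO sample 2 the log2 fold change was -1.81 (adjusted p = 0.00114, limma), and with a pseudocount of 1 it was -1.03. The fall of *tbx1* kept its call in every setting that was run, with less precision in its size than those of *tbx2a*, *tbx2b* and *tbx18*.

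*tbx20* (ENSDARG00000005150), which is required in the developing heart, was at 1.61, 1.09 and 1.73 FPKM with the control MO (samples 1 to 3 in order) and at 1.3, 0.76 and 1.37 FPKM with the *nlrc3* MO. The groups overlapped. The log2 fold change was -0.36 (SE 0.28, 95% interval -1.01 to 0.29, limma adjusted p = 0.291), which is -0.13 once the shift of all tested genes is taken off. After scaling to TPM it was -0.73 with an adjusted p of 0.0489 in limma, still short of a 2-fold change.

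*tbx16* (ENSDARG00000007329), the spadetail gene of zebrafish, is needed for trunk mesoderm and for the blood and vessel precursors that arise from it. It was at 0.25, 0.32 and 0.15 FPKM with the control MO (samples 1 to 3 in order) and at 0.56, 0.84 and 0.28 FPKM with the *nlrc3* MO. The group means were 0.240 ± 0.0854 and 0.560 ± 0.280 FPKM (SD, n = 3 each), but the groups overlapped, because *nlrc3* MO sample 3 lay below control MO sample 2. In the fit without a filter its log2 fold change was 0.89 (SE 0.42, limma adjusted p = 0.136). At this level a difference was not shown.

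**Figure D2:**
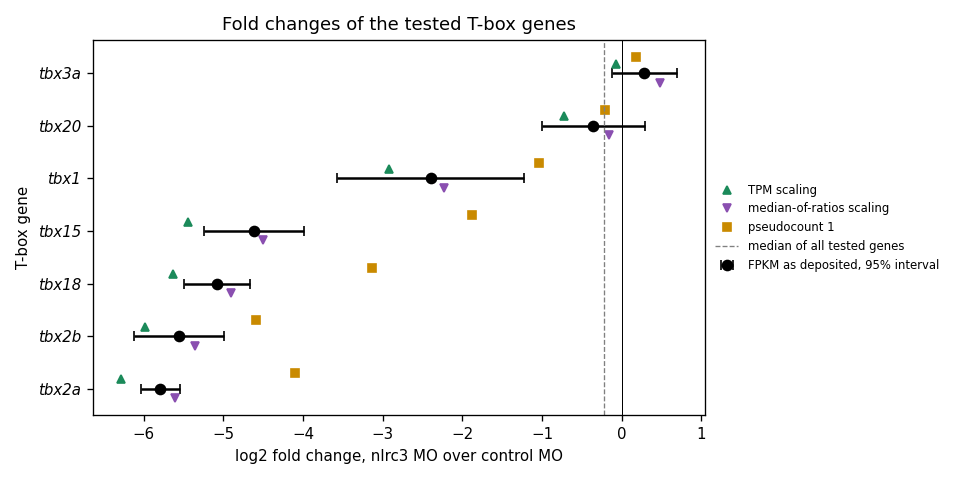
Log2 fold change of the 7 tested T-box genes, *nlrc3* MO over control MO (x axis), with the 95% interval from limma on the FPKM as deposited (black) and the values under TPM scaling, median-of-ratios scaling and a pseudocount of 1; the dashed line is the median of all tested genes, -0.22. *tbx2a*, *tbx2b*, *tbx18*, *tbx15* and *tbx1* lie below -1 in all 4 forms, and *tbx3a* changes sign with the scaling.

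Other T-box genes were looked up to see whether the fall ran through the whole family. Of 21 further names 15 were in the table and 5 were tested. Lower in the *nlrc3* MO samples was *tbr1a*, the counterpart of a gene of forebrain neurons, at 0.59 to 1 FPKM with the control MO and 0 to 0.21 FPKM with the *nlrc3* MO (log2 fold change -2.25, adjusted p = 0.00474, limma). As *tbr1a* passed the filter only through the control MO samples, a difference was built into its selection. Higher was *tbxta*, the brachyury gene of notochord and tailbud, at 0.56 to 0.99 FPKM with the control MO and 1.44 to 2.22 FPKM with the *nlrc3* MO. Its log2 fold change of 1.15 (adjusted p = 0.00536, limma) was 0.96 without control MO sample 1, 0.83 as TPM and 0.67 with a pseudocount of 1, and in none of these was it called. With a pseudocount of 1 *tbr1a* also lost its call (-0.67).

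The tested relatives of *tbx16* were not called in either direction with the FPKM as deposited. Their values under other scalings are not given here, and *mgaa* lay close to the fold limit. *tbx16l*, a close relative of *tbx16*, was at 20.2 to 21.6 FPKM with the control MO and at 29.7 FPKM in each *nlrc3* MO sample to 3 digits, a log2 fold change of 0.50 (adjusted p = 3.47e-05, limma) that stays under the fold limit. *tbx6* was at 1.05 to 1.13 FPKM with the control MO and 1.52 to 2.24 FPKM with the *nlrc3* MO (log2 fold change 0.61, adjusted p = 0.0271, limma). *mgaa*, which pairs a T-box with a Max-binding domain, was at 7.12 to 8.78 and 3.44 to 4.34 FPKM (log2 fold change -0.94, adjusted p = 3.76e-04, limma), with every *nlrc3* MO sample below every control MO sample but short of the fold limit. The other 10 genes, among them *tbx4*, *tbx5b*, *tbx3b*, *tbx22* and *eomesa*, were below the filter.

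The make-up of T-box transcripts differed between the groups. The 9 genes of the set made up 71.4% ± 1.41 of all T-box FPKM with the control MO and 11.5% ± 0.454 with the *nlrc3* MO (SD, n = 3 each). *tbx2b* alone made up 53.4% ± 0.600 of the FPKM of the set with the control MO, against 17.5% ± 7.84 with the *nlrc3* MO. The single gene *tbx16l* went from 18.5% ± 0.600 to 68.9% ± 1.51 of all T-box FPKM. These shares do not depend on the scaling of the libraries.

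**Figure D3:**
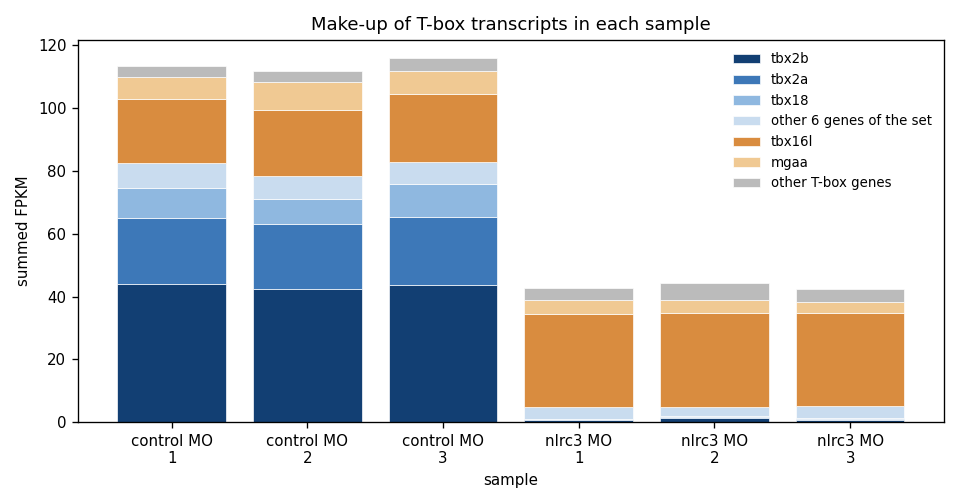
Summed FPKM (y axis) of the 24 T-box genes of the table in each of the 6 samples (x axis), split into *tbx2b*, *tbx2a*, *tbx18*, the other 6 genes of the set, *tbx16l*, *mgaa* and the remaining genes. The bars reach 112 to 116 FPKM with the control MO, mostly *tbx2b*, *tbx2a* and *tbx16l*, and 42.4 to 44.2 FPKM with the *nlrc3* MO, mostly *tbx16l*.

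Genes chosen for the arches, heart, fin bud, tailbud and somites were described by list, as counts beside those of all tested genes (20.4% lower, 4.89% higher, median -0.22). Some lists are named for partners of these factors, but no working relation was tested, and some genes sit in several lists. All lists, also those of cell types, were chosen with earlier results of these data known. Their counts are therefore no test against all tested genes. Among the partners of Tbx1 in the pharyngeal arches, 26 of 34 genes in the table were tested and 23 were lower. None was called higher by limma, nor was any higher at an unadjusted p under 0.05 (0 genes), and the median log2 fold change was -2.87. Of these 26 genes 10 passed the filter through exactly 3 samples. The endothelin receptor gene *ednrab*, which receives the signal that patterns the lower jaw, was at 66.2 to 69.5 FPKM with the control MO and at 0.74 to 0.85 FPKM with the *nlrc3* MO. The other endothelin receptor gene *ednraa* was at 19.6 to 21.95 and 3.64 to 4.94 FPKM, and *cyp26a1*, which breaks down retinoic acid, at 21.9 to 23.2 and 1.54 to 2.01 FPKM. The cell adhesion gene *alcama* went from 35.14 to 39.65 FPKM with the control MO to 1.63 to 2.5 FPKM with the *nlrc3* MO. The ligand gene of the endothelin receptors, *edn1*, was named after its values were seen and was not called, at 0.71 to 1.9 and 0.77 to 1.6 FPKM with overlapping groups (log2 fold change -0.040, adjusted p = 0.934, limma).

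Of the cardiac regulators 23 of 30 genes in the table were tested, 14 were lower and none was called higher by limma, while 1 gene was higher at an unadjusted p under 0.05. The median log2 fold change was -1.27, and 7 of the 23 genes passed the filter through exactly 3 samples. *hand2*, a regulator of heart, arches and fin, was at 18.6 to 22.2 FPKM with the control MO and at 0.24 to 0.97 FPKM with the *nlrc3* MO. The flow-responsive gene *klf2a* went from 58.2 to 61.4 FPKM down to 7.16 to 8.38 FPKM, and the atrial regulator *nr2f1a* from 21.4 to 22.0 FPKM down to 4.78 to 5.47 FPKM. Of the 18 heart muscle entries found, 6 were tested, 3 were higher, 0 were lower by limma and 0 were lower at an unadjusted p under 0.05. Their most abundant genes were *actc1a*, an actin shared with trunk muscle (13.7 to 14.6 FPKM with the control MO, 27.4 to 34.2 with the *nlrc3* MO), and *desma*, a filament gene of all muscle (4.99 to 6.05 and 8.08 to 9.53 FPKM, not called). The log2 fold change of *actc1a* was 1.15, but 0.78 after scaling to TPM, where it was not called. A second identifier of *actc1a* was at 1.95 to 4.21 and 0.29 to 2.24 FPKM. Of the defining markers *myl7*, *nppa*, *tnnc1a* and *myh6* none exceeded 0.02 FPKM in any sample, but they are only a part of the list. The 18 entries summed to between 28.54 and 31.85 FPKM with the control MO and to between 47.49 and 55.37 FPKM with the *nlrc3* MO. Apart from *actc1a*, the heart muscle genes called higher are not named here.

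The partners of Tbx5 in the pectoral fin bud were split. Of 27 tested genes 13 were lower and 5 were higher, with a median log2 fold change of -0.99. Of these 27 genes 3 passed the filter through exactly 3 samples. The lower genes included *dlx2a* (101 to 105 FPKM with the control MO, 0.23 to 1.03 in *nlrc3* MO samples), *sall4* (72.1 to 72.8 and 4.61 to 5.28 FPKM), *dlx5a* (66.6 to 75.7 and 0.68 to 1.92 FPKM) and *prdm1a* (50.8 to 54.6 and 6.07 to 6.73 FPKM), of which the Dlx genes are also arch genes. All 5 higher genes were named after their values were seen. They were the fin fold genes *and1* (1.06 to 1.58 and 4.22 to 4.49 FPKM, log2 fold change 1.66) and *and2* (0.25 to 0.41 and 1.71 to 2.09 FPKM, 2.17) and the posterior Hox genes *hoxa9b* (1.35), *hoxd10a* (1.25) and *hoxd11a* (1.28), each with an adjusted p in limma of at most 1.67e-04. Of these, *and2* passed the filter only through the *nlrc3* MO samples, so that a difference was built into its selection.

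Among the partners of Tbx16 in tailbud and somites, 10 of 22 tested genes were lower and 3 were higher, with a median log2 fold change of -0.86. The lower genes included *foxc1a* (77.2 to 77.3 FPKM with the control MO, 12.2 to 13.2 in *nlrc3* MO samples). *foxc1b* (50.3 to 53.7 and 0.68 to 1.09 FPKM) was also lower, and both are also expressed in arch mesenchyme and vessels. Lower too were the Notch ligand *dlc* (29.8 to 31.4 and 6.94 to 7.74 FPKM) and *hoxb1b* (mean levels 18.1 and 2.58 FPKM). The study uses *dlc* as a marker of arterial endothelium. It reports no clear vessel defect by in situ hybridization for *dlc* and no change of this gene by qPCR. Whether arterial or somite cells account for the lower *dlc* values here was not tested. The 3 higher genes, named after their values were seen, were *tbxta*, the segmentation clock gene *her1* (0.56 to 0.77 and 2 to 2.47 FPKM, log2 fold change 1.64, adjusted p = 1.67e-04, limma) and the posterior gene *cdx4* (0.75 to 1.03 and 2.08 to 2.82 FPKM, log2 fold change 1.27, adjusted p = 8.72e-04, limma). Of the Ripply genes, whose products turn T-box factors into repressors, *ripply1* was lower, at 3.34 to 3.64 FPKM with the control MO and 0.45 to 0.88 FPKM with the *nlrc3* MO (log2 fold change -2.24, adjusted p = 9.35e-05, limma), *ripply2* was not called (-0.58, adjusted p = 0.0764, limma) and *ripply3* was below the filter.

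**Figure D4:**
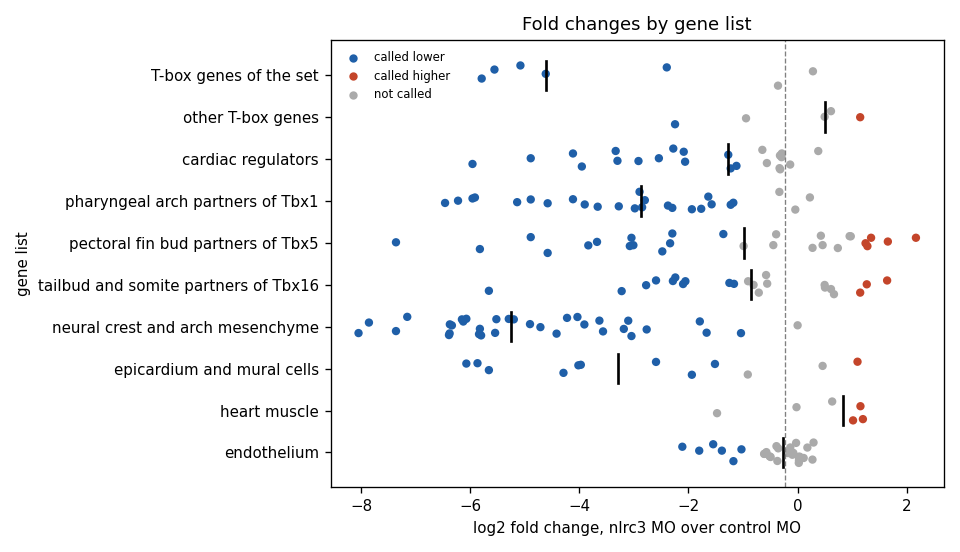
Log2 fold change, *nlrc3* MO over control MO (x axis), of each tested gene in 10 gene lists (y axis), blue where called lower, red where called higher and grey where not called, with a black bar at the median of each list and a dashed line at the median of all tested genes, -0.22. The medians are -2.87 for arch partners of Tbx1, -5.25 for neural crest and arch mesenchyme, -0.27 for endothelium and 0.83 for heart muscle.

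Markers of neural crest and arch mesenchyme moved with the T-box genes that fell. Of the 34 tested markers 33 were lower, 0 were higher by limma and 0 were higher at an unadjusted p under 0.05, and the median of their log2 fold changes was -5.25. Of these markers 14 passed the filter through exactly 3 samples. The exception *foxd3*, an early crest gene at 0.39 to 0.98 FPKM over all samples, was not called. Their most abundant members were *twist1a* (232 to 236 FPKM with the control MO, 2.01 to 3.44 in *nlrc3* MO samples) and *sox9a* (139 to 141 and 3.91 to 4.99 FPKM). The list of epicardium and mural cells, which *tbx18* marks, had 9 lower and 1 higher of 12 tested genes, 4 of which passed the filter through exactly 3 samples, and shares *pdgfra* with the crest list. It also holds *foxc1a*, its most abundant gene, and *foxc1b*. The list summed to between 273 and 276 FPKM with the control MO and to between 29.95 and 30.39 FPKM with the *nlrc3* MO. Its members *wt1a*, *wt1b*, *acta2* and *rgs5a* did not exceed 0.34 FPKM in any sample. They are only a part of the list and were picked outside the naming rule, so they do not speak for its other markers. The part of these cells in the fall of the T-box genes was not tested.

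The levels were also set against these markers within each sample, a measure chosen after the values were seen. The summed crest markers were 37.4-fold lower with the *nlrc3* MO, so a gene at the same FPKM in both groups rises by that factor on this measure. Per 100 FPKM of summed neural crest and arch markers, *tbx2b* was at 3.30 to 3.43 FPKM with the control MO. With the *nlrc3* MO it was at 1.77 and 2.08 FPKM in samples 1 and 3, below every control MO sample. In *nlrc3* MO sample 2 it was at 3.72 FPKM, above every control MO sample, so the ranges overlap only through sample 2. *tbx18* was at 0.624 to 0.828 FPKM with the control MO and at 0.450 to 0.597 FPKM with the *nlrc3* MO on this measure, just apart, and *tbx2a* was at 1.62 to 1.69 and 0.790 to 0.869 FPKM. *tbx15* also stayed lower, at 0.200 to 0.231 and 0 to 0.114 FPKM. On this measure *tbx1* was at 0.108 to 0.131 FPKM with the control MO. With the *nlrc3* MO, sample 2 lay inside that range at 0.114 FPKM, and samples 1 and 3 lay above it at 0.899 and 1.38 FPKM. By FPKM *tbx1* was lower in every *nlrc3* MO sample, so these values show no rise. For *tbx3a* the values were 0.0908 to 0.116 and 4.04 to 5.33 FPKM, and for *tbx20* they were 0.0852 to 0.135 and 2.16 to 4.01 FPKM. Neither gene was called by its FPKM, so these values say nothing of a rise. The summed endothelial markers were 1.36-fold lower with the *nlrc3* MO, so a gene at the same FPKM rises by that factor when set against them. Per 100 FPKM of the endothelial markers *tbx20* was at 0.0646 to 0.104 FPKM with the control MO and at 0.0604 to 0.111 FPKM with the *nlrc3* MO, which overlap. On the same measure *tbx3a* (0.0695 to 0.0878 and 0.113 to 0.148 FPKM) and *tbx16* (0.00899 to 0.0190 and 0.0228 to 0.0668 FPKM) lay higher without overlap. By FPKM both overlapped between the groups, *tbx3a* was not called and *tbx16* was below the filter, so no rise was shown. Set against endothelial markers, *tbx2b* (2.503 to 2.621 and 0.0478 to 0.104 FPKM), *tbx2a* (1.23 to 1.29 and 0.0220 to 0.0235 FPKM), *tbx18* (0.473 to 0.633 and 0.0122 to 0.0167 FPKM), *tbx15* (0.153 to 0.175 and 0 to 0.00318 FPKM) and *tbx1* (0.0827 to 0.0990 and 0.00318 to 0.0382 FPKM) lay lower without overlap. The share of all genes that lay apart was not worked out for either measure, that of the crest markers or that of the endothelial markers.

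**Figure D5:**
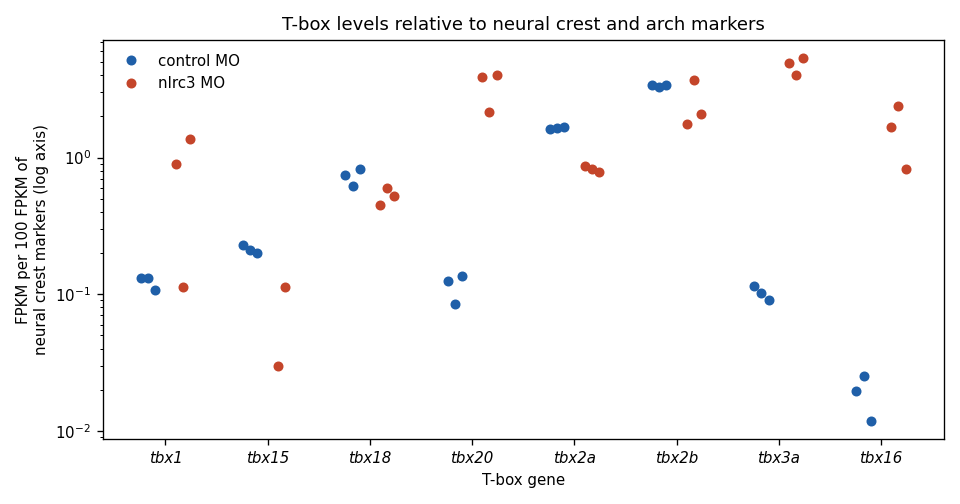
FPKM of 8 T-box genes per 100 FPKM of summed neural crest and arch mesenchyme markers in the same sample (y axis, log axis), in the 3 control MO samples (blue) and the 3 *nlrc3* MO samples (red); *tbx15* in *nlrc3* MO sample 3 is at 0 and not drawn, and *tbx5a* is left out. On this measure the ranges of *tbx2b* and *tbx1* overlap only through *nlrc3* MO sample 2. In *nlrc3* MO samples 1 and 3 *tbx2b* is lower and *tbx1* higher than in every control MO sample. *tbx2a*, *tbx18* and *tbx15* are lower and *tbx3a*, *tbx20* and *tbx16* are higher in the *nlrc3* MO samples, where the marker sum itself was 37.4-fold lower.

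Finally, the tested genes outside the set with a mean of at least 5 FPKM (7631 genes) were searched for profiles most like those of the 3 most abundant T-box genes, by the root mean square difference of log2(FPKM + 0.1) over the 6 samples after centring on the control MO mean. For *tbx2b* these were *csf1a* (0.12), which encodes a colony-stimulating factor, and *cd248a* (0.18). For *tbx2a* they were *six1b* (0.11), an arch and placode regulator, and *foxd1* (0.14). For *tbx18* they were *nr2f1b* (0.15) and *sox9a* (0.18). Since the samples form only 2 groups, the likeness rests mostly on the size of the fall. That size depends on the pseudocount where *nlrc3* MO values are near 0. Over the alternative settings the log2 fold change ranged from -7.01 to -3.38 for *six1b* and from -6.29 to -4.11 for *tbx2a*. *csf1a*, *cd248a*, *six1b* and *nr2f1b* passed the filter only through the control MO samples, so that a difference was built into their selection.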

How the data were processed

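RNA was measured in sorted EGFP+ cells of 3 control MO and 3 *nlrc3* MO samples. The authors deposited FPKM with 2 decimals for 32057 genes in one table, made according to the methods with Cutadapt, HISAT2 (Ensembl zebrafish genome), StringTie, gffcompare and ballgown. The submitters' processing notes instead list CASAVA 1.8, Bowtie 0.12.2 and the mouse build mm8. The gene identifiers are Ensembl identifiers of zebrafish, which a mouse build would not give, while the other upstream steps stay uncertain. Columns headed S and Mo were taken as control MO and *nlrc3* MO, because the methods name a standard morpholino and the study's source data head the same values with these groups. The table also holds the authors' fold changes, p-values and calls, which were not used, and no positions. The identifiers of all 9 genes were found in a separate list of gene names, which gives the same symbol for 1 of them and human-style symbols such as TBX2 for others, so the symbols are those of the table.

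Log2(FPKM + 0.1) was fitted with limma 3.58.1 (lmFit, eBayes with trend) in R 4.3.3 for the 15155 genes that reached 0.5 FPKM in 3 or more samples, with Benjamini-Hochberg adjustment, and the fit was tested on simulated data. Ratios of genes were compared by exact two-sided permutation tests over samples. Tables were made in Python 3.11.15 (numpy 2.4.6, pandas 2.3.3) and drawn with matplotlib 3.10.9. The genes and lists were chosen with earlier results of these data known. Named are all 9 genes, called T-box genes, up to 4 called genes with the highest mean FPKM in each partner list, the 2 most abundant genes of marker lists, and the 2 profiles most like each of the 3 most abundant T-box genes. Defining markers and others are named outside this rule. Markers of erythroid, myeloid, neural, epidermal and trunk muscle cells were also listed and are given in the closing section. Depth is unknown, and same-numbered samples did not deviate together, so the fit has no block.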

Additional observations from a re-analysis of the deposited data

How the results depend on the processing

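The fit was repeated under 16 alternatives. In all of them 5 T-box genes were called lower and 0 higher. Of all tested genes, 3091 were called lower and 741 higher. A pseudocount of 1 gave 1944 and 354, leaving out the fold change limit 6496 and 3062, TPM scaling 4620 and 295, and median-of-ratios scaling 2510 and 1165. The median log2 fold change stayed below 0 in each. As TPM the log2 fold changes of *tbx3a* (-0.073), *stab2* (-0.34) and *krt4* (-0.26) changed sign. With a pseudocount of 1 the target gene *nlrc3* lost its call (log2 fold change -0.64). The change in the log2 ratio of *tbx2a* to *tbx2b* was 0.48 with a pseudocount of 1 and ranged from -0.46 to 0.059 with each sample left out, turning sign only without *nlrc3* MO sample 2. That of *tbx2b* to *tbx3a* was -4.77 with a pseudocount of 1, that of *tbx15* to *tbx18* was 1.26 with a pseudocount of 1 and -1.36 with 0.01, and that of *tbx5a* to *tbx20* was 0.48 (exact permutation p = 0.3) and 1.05 with 0.01, a ratio that rests on values of *tbx5a* at or near 0. The pseudocount enters these ratios directly.

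With a replicate block on the sample number the counts were 3102 lower and 743 higher genes, and the 5 T-box genes kept their calls. Same-numbered samples had correlations of their deviations from 0.0041 to 0.040 and below 0 for one number, and differently numbered samples reached 0.035. Pairing by number was thus not shown, but values this small cannot tell whether samples shared a clutch or batch.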

Other observations

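Among the other cell types in the sort, the summed erythroid and myeloid markers were higher with the *nlrc3* MO, and the summed endothelial, neural, epidermal and trunk muscle markers were lower. Of all tested genes 20.4% were called lower and 4.89% higher. The erythroid list summed to between 40256 and 40525 FPKM with the control MO and to between 113343 and 115403 FPKM with the *nlrc3* MO, with 10 of 12 tested genes higher and 0 lower (0 lower at an unadjusted p under 0.05, limma). Its most abundant genes were the embryonic globins *hbbe3* and *hbae3*, with log2 fold changes of 1.44 and 1.63. The myeloid list had 10 higher and 1 lower of 15 tested genes, led by *lyz* (381 to 392 and 790 to 802 FPKM) and *cebpb* (126 to 130 and 71.9 to 79.3 FPKM). Endothelial markers had 6 lower of 28 tested genes, among them *fli1a* (201.5 to 206.8 and 88.1 to 94.1 FPKM), whose promoter drives the EGFP used for sorting, while *stab2* was at 169 to 172 and 172 to 179 FPKM. None of the 28 was called higher by limma, and at an unadjusted p under 0.05, 16 were lower and 4 were higher. Neural markers had 6 lower of 14, led by *tubb5* (117 to 121 and 14.3 to 14.7 FPKM) and *nova2* (8.65 to 9.07 and 5.91 to 6.57 FPKM), and none was higher by limma or at an unadjusted p under 0.05 (0 genes). Epidermal markers had 1 lower of 16, led by *krt8* (662 to 671 and 274 to 280 FPKM) and *krt4* (49.9 to 54.4 and 55.1 to 56.9 FPKM), with none called higher by limma and 8 higher at an unadjusted p under 0.05. Their sum was 786 to 792 FPKM with the control MO and 416 to 422 FPKM with the *nlrc3* MO. The lower sum rests on *krt8*, while the median log2 fold change of the list was -0.030. Trunk muscle markers had 2 lower and 2 higher of 17, led by *mylpfa* (31.4 to 33.0 and 17.9 to 22.2 FPKM) and *ckma* (18.6 to 20.2 and 14.2 to 19.3 FPKM). The part of these shifts in the T-box values was not tested.

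The genes next to the T-box genes were looked up by their order in the RefSeq annotation of GRCz12tu, another assembly than that of the table. *acaca* and *ppm1db*, the protein-coding neighbours of *tbx2a*, were at 0.93 to 1.19 and 7.61 to 9.14 FPKM with the control MO and at 0.92 to 1.1 and 8.11 to 11.0 FPKM with the *nlrc3* MO, and overlapped between the groups (log2 fold changes -0.097 and 0.25). *tbx4*, which follows *tbx2b*, was at 0.03 to 0.14 FPKM and 0 to 0.08 FPKM. Of the 9 tested neighbours 2 were called lower, where 20.4% of all tested genes were, and 0 were called higher. *wars2*, next to *tbx15*, was called lower (log2 fold change -1.15, adjusted p = 0.00106, limma), as was *irak1bp1*, next to *tbx18* (-1.65, adjusted p = 0.00230, limma). The others were not called, with log2 fold changes of -0.56 for *wdr3* on the other side of *tbx15*, -0.12 for *gnb1l* next to *tbx1*, 0.43 for *herpud2* next to *tbx20*, -0.22 for *ddx54* next to *tbx5a* and -0.92 for *cabin1* next to *tbx16*. Of these, *wdr3* (adjusted p = 5.68e-05), *herpud2* (0.00368), *ddx54* (0.00374) and *cabin1* (2.78e-04, all limma) did not overlap between groups and missed only the fold limit. By the adjusted p alone 42.9% of all tested genes were lower and 20.2% higher. Without overlap between the groups, 46.1% of all tested genes lay lower and 22.8% higher. *tbx3a* and *tbx5a* are neighbours of each other, and neither was called.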
